A study of Raphanus sativus with 12 samples.

Results

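Early light-induced protein 1 (ELIP1) was represented in radish (Raphanus sativus) by 2 gene copies, Rsa10005993 and Rsa10028070, of 30161 genes in the expression table. Both were picked by their identifiers because their transcripts were among those most reduced between the ages compared here, so their levels are given as a description with no test of that difference. Leaf blades of the diploid material XHT were sampled 30 days after sowing, in vegetative growth, and 120 days after sowing, in reproductive growth. Plants of both ages received no treatment and grew at 25 °C with 16 hours of light and at 23 °C in darkness at night. Transcript levels came from 3 input libraries (ordinary RNA sequencing) at each age, each made from the pooled leaves of 3 plants. The study compared the ages to learn how N6-methyladenosine (m6A), a methylated base in messenger RNA, takes part in bolting and flowering.

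ELIPs belong to the same protein superfamily as the antenna proteins that harvest light, and they sit in the thylakoid membrane of the chloroplast. In Arabidopsis they are nearly absent from leaves in moderate light and accumulate for a short time in greening seedlings and in strong light, ultraviolet light or cold. They are thought to hold chlorophyll safely while photosystems are built or repaired. The transcription factor HY5, the cryptochromes and the ultraviolet-B receptor UVR8 act upstream of them in that species.

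The libraries did not stand equally close to each other before any gene was singled out. Across the 21435 genes tested, Pearson's r of log2 levels was 0.971 to 0.985 among the 120-day libraries, 0.944 between 30-day replicates 1 and 2, and 0.835 to 0.895 between these and 30-day replicate 3. Genes share libraries and are not independent points for this measure. The marker genes of leaf mesophyll were abundant in all 6 libraries, with summed FPKM (a level corrected for transcript length and for the fragments mapped in each library) of 77266 to 101312 at 120 days and of 14956 to 18652 at 30 days. The floral marker genes summed to 17.3 to 53.9 FPKM, the root marker genes to 57.8 to 84.5, and the senescence protease SAG12 to at most 5.09, with 0 in each 120-day library. Of the floral markers 2 of 14 passed the filter on low values, and all 3 root markers were ROOT HAIR DEFECTIVE 3 genes, which are not confined to roots. The part of these markers in the results below was not tested.

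Rsa10005993, described as ELIP1 isoform X1, lies on R05 from 29636029 to 29637453 on the plus strand. It had 6.79, 5.85 and 6.54 FPKM in 120-day replicates 1 to 3, and 759, 102 and 8507 FPKM in 30-day replicates 1 to 3. Every 120-day library was thus low and close to the others, while the 30-day libraries were all higher and spread over a wide range. The lowest 30-day library was still 15-fold above the highest 120-day library. The means were 6.39 ± 0.487 FPKM at 120 days and 3123 ± 4675 FPKM at 30 days (SD, n = 3 each), a difference of −6.88 between mean log2(FPKM + 1) values. The log2 difference was −5.24 without 30-day replicate 3 and −8.43 without 30-day replicate 2.

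Rsa10028070, described as ELIP1-like, lies on R01 from 44630664 to 44632005 on the plus strand. Its 120-day levels were 1.97, 1.47 and 1.92 FPKM, and its 30-day levels were 145, 8.17 and 2975 FPKM in replicates 1 to 3. The same 30-day library, replicate 3, was the highest for both copies, and replicate 2 was the lowest. Here the lowest 30-day library was 4.15-fold above the highest 120-day library. The means were 1.79 ± 0.275 FPKM at 120 days and 1043 ± 1675 FPKM at 30 days (SD, n = 3 each), a log2 difference of −5.83. It was −3.72 without 30-day replicate 3 and −7.89 without 30-day replicate 2, so for both copies the size of the difference rested on which 30-day libraries were counted. Both copies had all 120-day values below all 30-day values, as did 49.1% of the genes tested, while 60.7% had no overlap in either direction. In the authors' deposited table the log2 folds, computed from mean FPKM and so weighted to the highest library, were −8.93 for Rsa10005993 and −9.19 for Rsa10028070. In leaf RNA, fewer cells that express a gene and less RNA per cell cannot be told apart.

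**Figure D1:**
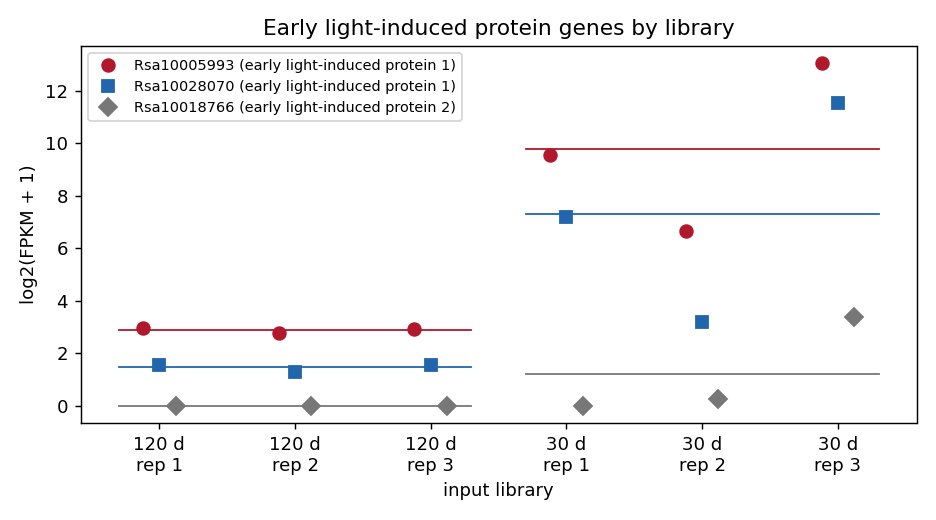
Level of each early light-induced protein gene as log2(FPKM + 1) in the 6 input libraries. Points are libraries and horizontal lines are the mean of the 3 libraries of an age. Both ELIP1 copies lie close together at 120 days and spread from 8.17 to 8507 FPKM at 30 days, and ELIP2 reaches 9.52 FPKM in 30-day replicate 3.

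The place of the copies among all transcripts changed with the library. Rsa10005993 was the transcript with rank 2 of 30161 in 30-day replicate 3, rank 48 in replicate 1 and rank 1124 in replicate 2, and it stood at ranks 11515 to 12549 in the 120-day libraries. Rsa10028070 had ranks 4, 665 and 12263 in 30-day replicates 3, 1 and 2, and ranks 17876 to 19087 at 120 days. Both copies together took 1.8% of the summed FPKM in 30-day replicate 3, 0.139% in replicate 1 and 0.0162% in replicate 2. At 120 days they took 0.00105% to 0.00129%.

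The spread within the 30-day age was among the widest of all genes tested, and it is part of why these genes were picked. The SD of log2(FPKM + 1) over the 30-day libraries was 3.19 for Rsa10005993, exceeded by 25 of the 21435 genes tested, and 4.17 for Rsa10028070, exceeded by 1. The median gene had 0.31. Within 120 days the copies were close to the median gene or below it in spread. Their SDs there were 0.1 and 0.15, against a median of 0.15, and 71.8% and 50.3% of the genes tested had a greater SD. Adding 1 before the log narrows the spread of low genes, such as Rsa10028070 with 1.47 to 1.97 FPKM at 120 days. The highest 30-day library was 83.8-fold above the lowest for Rsa10005993 and 364-fold for Rsa10028070.

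**Figure D2:**
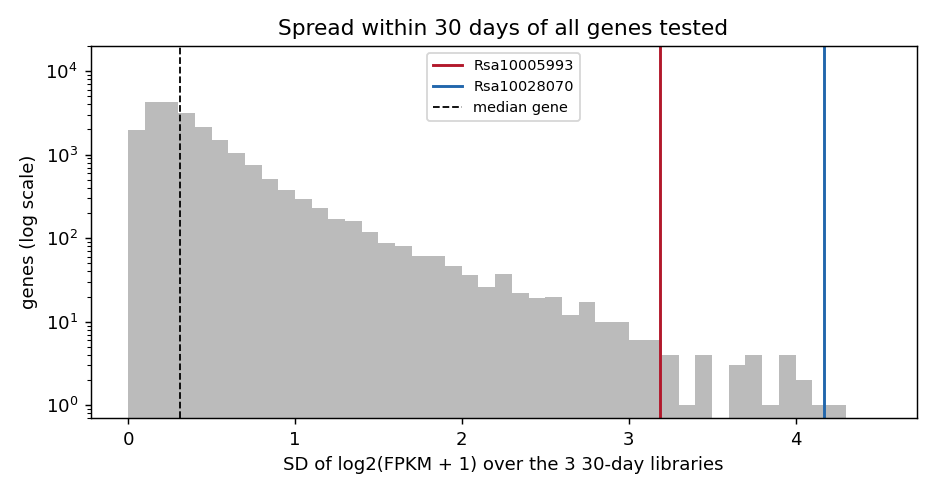
Number of genes tested (log scale) by the SD of log2(FPKM + 1) over the 30-day libraries. The dashed line is the median gene at 0.31, and the solid lines are Rsa10005993 at 3.19 and Rsa10028070 at 4.17, in the far tail.

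Rsa10005993 was the more abundant copy in all 6 libraries, on the FPKM scale, which is per length. It exceeded Rsa10028070 by 3.45-, 3.98- and 3.41-fold in 120-day replicates 1 to 3, and by 5.23-, 12.4- and 2.86-fold in 30-day replicates 1 to 3. The mean difference in log2(FPKM + 1) was 1.93 ± 0.85 (SD, n = 6 libraries), with p = 0.0312 in a 2-sided exact sign-flip permutation test, the smallest p that 6 libraries allow. The libraries of both ages entered that test together. The gap between the copies was 1.41 ± 0.05 at 120 days and 2.46 ± 0.99 at 30 days (SD, n = 3 each). The ages differed by −1.05 in this gap, which is given with no test because it is the difference between the folds that chose the copies. Without 30-day replicate 2, where Rsa10028070 was lowest relative to Rsa10005993, the ages differed by −0.54. Without 30-day replicate 3 they differed by −1.52. The difference was −0.72 with 0.1 in place of 1 added to FPKM, and −0.87 with quantile normalization. Its size thus depended on the value added to FPKM, with Rsa10028070 at 1.47 to 1.97 FPKM at 120 days. No source used here says how reads matching both copies were assigned, so the level of each copy is uncertain to the extent that they share sequence.

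Another gene of the family, Rsa10018766, is described as ELIP2 and lies on R02 from 10458220 to 10459243 on the minus strand. It was listed at 0 in all 3 120-day libraries and at 0, 0.21 and 9.52 FPKM in 30-day replicates 1, 2 and 3. Its highest value fell in the library that was also highest for the ELIP1 copies. It did not pass the filter of 1 FPKM in at least 3 libraries and was not tested.

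The copies share no neighbourhood in the annotation of the deposited files. No other gene lay within 10 kb of Rsa10005993, and 3 genes lay within 10 kb of Rsa10028070, none of them overlapping it. Rsa10028069, a short gene with no description that starts 442 bases beyond the 3′ end of Rsa10028070 on the same strand, was listed at 0 in every 120-day library and at 1.57, 0 and 2.43 FPKM in 30-day replicates 1 to 3. Rsa10028072, which encodes a p24-type membrane protein 4039 bases away on the minus strand, had 11.1 to 13.3 FPKM at 120 days and 12.5 to 14.7 at 30 days. Rsa10028071, between that gene and the ELIP1 copy, had at most 2.07 FPKM, in 30-day replicate 3. All 3 neighbours had their highest value in the library where the ELIP1 copy was highest, at far lower levels than that copy. Within 30 days 39.7% of all genes tested were highest in that library. Rsa10028072 varied little between the libraries, and the other neighbours did not exceed 2.43 FPKM. The copies carried the same 19 Gene Ontology terms, and ELIP2 carried 17 of these. Among the 19 were photoprotection, chlorophyll binding and responses to cold, heat and blue, red, far-red and ultraviolet-A light.

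No differential m6A peak was listed for either ELIP1 copy or for ELIP2. The authors' deposited table of 5476 peaks holds only peaks with a p of at most 0.049 and an FDR of at most 0.0912, so it does not show whether these transcripts carry m6A. A listed peak was present in 23.3% of the genes tested and in 16.2% of those with a mean of at least 100 FPKM. None of the 31 antenna genes and none of the 6 relatives of ELIP1 described below had one.

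Each ELIP1 copy was the nearest gene to the other in its pattern over the 6 libraries. Likeness was measured as the root mean square difference between profiles of log2(FPKM + 1) after the mean of each gene was removed, and no test was made of it. The copies differed by 0.77, rank 1 of 21434 genes in both directions, while the median gene differed by 3.71 from Rsa10005993 and by 3.61 from Rsa10028070. With a pseudocount of 0.1 Rsa10028070 was rank 2 to Rsa10005993. The copies were picked for their fall and wide spread in these same libraries. Their likeness therefore follows in part from that choice, and the ranks are a description only. Any sharing of reads between the copies would add to this likeness and was not tested.

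The 6 nearest genes with an informative description were taken for each copy, which gave 8 genes, 4 of them near both. All 8 had their 30-day libraries in the order of the ELIP1 copies, with replicate 3 above replicate 1 above replicate 2, which follows largely from choosing them by likeness. Near both copies was the large subunit 3 of glucose-1-phosphate adenylyltransferase (Rsa10037381), which makes the sugar donor for starch. Its levels were 4.26, 4.46 and 3.7 FPKM at 120 days and 110, 8.52 and 532 in replicates 1 to 3 at 30 days. Glucose-6-phosphate/phosphate translocator 2 (Rsa10028171), which carries sugar phosphate into plastids, had 4.09, 1.01 and 0.82 FPKM at 120 days and 187, 2.09 and 282 at 30 days. Both genes of plastid carbohydrate supply thus stood far below the other 30-day libraries in replicate 2, and for the translocator that library lay within its 120-day range.

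Glutaredoxin-C6-like (Rsa10037081), a small redox protein, stood at 0.48, 0.06 and 0.06 FPKM at 120 days, and at 54.0, 1.48 and 114 FPKM at 30 days. UDP-glycosyltransferase 90A1 (Rsa10041786) was also near both copies, with 0.2 to 1.29 FPKM at 120 days and 10.5 to 142 at 30 days. Cytosolic glutamine synthetase 1-4-like (Rsa10018674), which assimilates ammonium, and tryptophan aminotransferase-related protein 4-like (Rsa10016788) were near Rsa10005993. Chalcone synthase 3 (Rsa10036148), the entry enzyme of flavonoid synthesis, and 1-aminocyclopropane-1-carboxylate oxidase homolog 12-like (Rsa10035679) were near Rsa10028070. Chalcone synthase 3 had 3.78, 0.04 and 0.07 FPKM at 120 days and 88.7, 0.17 and 196 at 30 days. Its 30-day replicate 2 therefore lay among the 120-day values, unlike that of either ELIP1 copy.

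**Figure D3:**
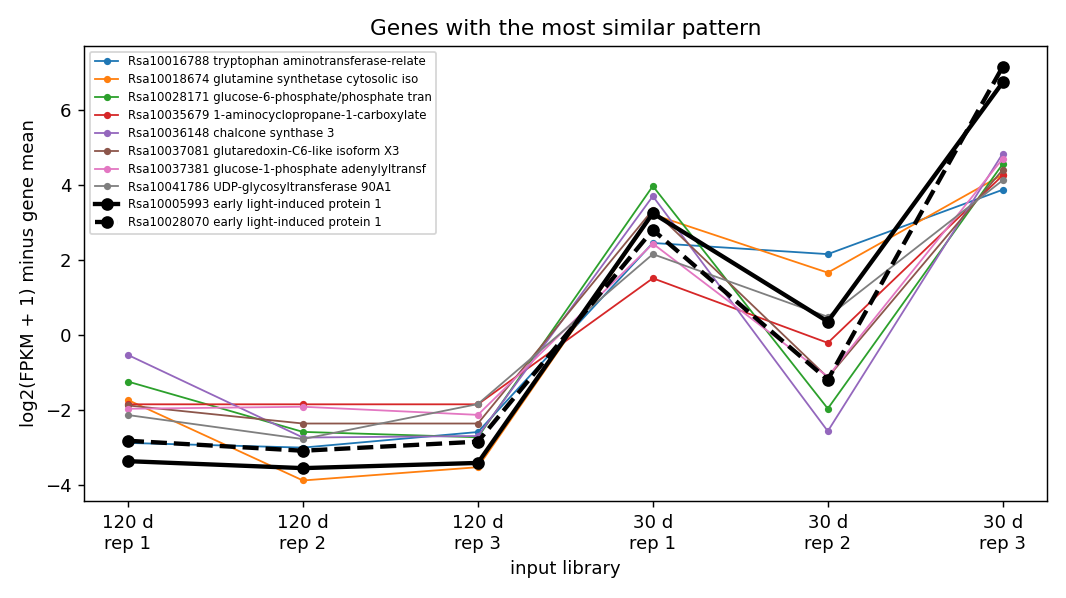
Log2(FPKM + 1) minus the mean of each gene in the 6 input libraries, for the ELIP1 copies (black) and the 8 genes nearest to them in pattern. Lines join the values of a gene and carry no order in time. All 10 genes peak in 30-day replicate 3, and within 30 days all 10 are lowest in replicate 2.

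The genes around ELIP1 were described from 10 lists matched by words in the gene descriptions, with the ELIP1 copies left out. For these genes the ages were tested with limma on log2(FPKM + 1), with Benjamini-Hochberg adjustment over all 21435 genes tested and a threshold of 0.05. Of all genes tested 46.0% passed, 8052 (37.6%) as falls and 1801 (8.40%) as rises at 120 days. The median gene had a log2 fold of −0.45, and median centring of the libraries moved it to −0.01 and gave 2188 falls and 2968 rises. Falls numbered 3789 to 5299 when 30-day replicate 1 or any single 120-day library was dropped, and rises 954 to 1148 when a 120-day library was. A share of falls near 37.6% in a list is therefore not particular to it.

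The relatives of ELIP1 in the thylakoid were divided. Of 6 matched genes 4 were tested, and 1 fell and 1 rose. Stress enhanced protein 2 (Rsa10028959), a light-stress protein of the same superfamily, fell from 218, 235 and 448 FPKM in 30-day replicates 1 to 3 to 66.2, 59.5 and 69.8 at 120 days (a log2 fold of −2.11, SE 0.30, limma adjusted p = 0.00428). The photosystem II 22 kDa protein PsbS switches the antenna to heat dissipation, and a gene described as PsbS, Rsa10009012, went the other way. It rose from 223, 194 and 430 to 625, 716 and 790 FPKM (log2 fold 1.41, SE 0.34, limma adjusted p = 0.0173). That rise lost its call when 120-day replicate 2 or 3 or 30-day replicate 1 was left out or when the libraries were quantile-normalized, and its adjusted p was 0.0017 to 0.133 over the alternatives. Another PsbS gene, Rsa10006779, was more abundant and did not pass (log2 fold 0.78, limma adjusted p = 0.2). It had 557, 458 and 1439 FPKM in 30-day replicates 1 to 3 and 1098 to 1378 at 120 days. Without 30-day replicate 3 it passed as a rise (1.29, limma adjusted p = 0.0039). Within 30 days all 4 tested relatives were highest in replicate 3, as were 39.7% of all genes tested. Leaving that library out gave 3 risers, and leaving out 120-day replicate 2 or 3 or 30-day replicate 1 gave 0.

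Regulators of light responses held several falls, though their share was near the background. Of 33 genes tested, 13 (39.4%) fell and 0 rose, and after median centring 6 fell and 3 rose. HY5 (Rsa10013670), which activates ELIP genes in Arabidopsis, was measured at 7.37, 6.09 and 4.09 FPKM in the 120-day libraries, against 31.9, 41.7 and 81.5 in 30-day replicates 1 to 3. It fell by a log2 fold of −2.86 (SE 0.37, limma adjusted p = 0.00367). The ages did not overlap, as in 60.7% of all genes tested. Its highest value lay in the same library as that of the ELIP1 copies. Its 30-day replicate 2 stood above replicate 1, unlike that of the ELIP1 copies. The part of HY5 in the ELIP1 levels was not tested.

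Of the 5 genes described as HY5 or HY5-like 4 fell, and 4 were highest in 30-day replicate 3. All but Rsa10013670 are described as HY5-like. After median centring 2 fell. Among all genes tested 37.6% fell, and 39.7% were highest in replicate 3 within 30 days. Rsa10025049 fell from 33.3 ± 6.99 to 4.73 ± 0.612 FPKM (SD, n = 3 each), by a log2 fold of −2.56 (limma adjusted p = 0.00153). This was the gene of the 5 that did not peak in replicate 3, with 25.4, 38.7 and 35.8 FPKM at 30 days. It also held an exonic m6A peak on R02 from 12452232 to 12453176, higher at 120 days by a log2 fold of 0.74 in the authors' deposited table (FDR 6.17e-08). A listed peak was present in 9 of the 36 matched light signalling genes (25%) and in 23.3% of all genes tested. The falls of Rsa10035018 (log2 fold −1.90) and Rsa10042547 (−1.51) were lost after median centring or quantile normalization and without any 1 of the 120-day libraries. Rsa10035018 had 5.49, 4.89 and 22.5 FPKM in 30-day replicates 1 to 3. The remaining gene, Rsa10023041, did not pass (log2 fold −0.81, limma adjusted p = 0.21).

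Of 11 tested genes described as the receptor UVR8 or like it, 6 fell and 0 rose, while 37.6% of all genes tested fell. Their log2 folds ran from −2.45 to 0.50, and 3 of the 11 fell after median centring. Rsa10007560, described as UVR8-like, had the clearest fall (log2 fold −2.45, limma adjusted p = 0.00141). Its levels were 16.7, 13.2 and 19.1 FPKM at 30 days and 2.25, 1.96 and 2.17 at 120 days. Rsa10020778, also described as UVR8-like, fell by a log2 fold of −1.65 (limma adjusted p = 0.00243). Both of these genes were less spread within 30 days than the ELIP1 copies. More abundant genes of the group did not pass. Rsa10025063, described as UVR8, had means of 38.4 FPKM at 30 days and 35.7 at 120 days (log2 fold −0.11, limma adjusted p = 0.547). Rsa10042050, described as UVR8-like, had 64.4 and 54.2 (log2 fold −0.25, limma adjusted p = 0.16). None of the 3 cryptochromes, blue-light receptors named here after their values were seen, passed the test. Their log2 folds were 0.36 (Rsa10029400), −0.17 (Rsa10017354) and −0.01 (Rsa10041457), and Rsa10029400 passed as a rise after median centring (0.79, limma adjusted p = 0.0131) while Rsa10017354 passed as a fall without 30-day replicate 3 (−0.57, limma adjusted p = 0.0225).

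The clock gene GIGANTEA, which links day length to flowering, was lowest in 30-day replicate 3, where ELIP1 was highest. So were 20 of the 40 clock genes tested (50%) and 39.1% of all genes tested. The GIGANTEA copy Rsa10001141 had 14.3, 15.4 and 1.35 FPKM and the copy Rsa10040162 had 8.33, 7.35 and 0.9 in replicates 1 to 3. Replicates 1 and 2 were close to each other in both copies, unlike those of ELIP1. Their 120-day levels were 1.68 to 5.78 FPKM. Neither passed the test between the ages with all libraries (limma adjusted p = 0.443 and 0.39), and both passed without 30-day replicate 3 (adjusted p = 0.0047 and 0.0046). The morning clock gene CCA1 (Rsa10009871) had 4.55, 3.69 and 6.32 FPKM at 30 days and 2.37, 4.34 and 3.53 at 120 days (limma adjusted p = 0.212). The hour of harvest is not given in the labels, and the part of the clock in the 30-day spread of ELIP1 was not tested. Of 40 clock genes tested 16 (40%) fell, near the 37.6% of all genes tested, and 1 rose. The falls were led by REVEILLE 5 (Rsa10025651, −1.45) and 2 genes like EARLY FLOWERING 4 (Rsa10022832, −1.74, and Rsa10007109, −1.52). Clock falls numbered 7 to 9 without a 120-day library and 4 after median centring.

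Genes of flavonoids and anthocyanins, pigments that screen leaves from strong light, held the largest share of genes with the 30-day order of ELIP1 among the 10 lists. Of 16 tested genes 11 (68.8%) had the 30-day order of replicate 3 above 1 above 2, against 29.6% of all genes tested. All 3 chalcone synthase genes did so. Besides Rsa10036148 above, Rsa10025178 had 122, 0.51 and 239 FPKM in 30-day replicates 1 to 3 and 5.64, 3.32 and 3.78 at 120 days, and Rsa10002061 had 262, 1.39 and 358 against 12.5, 0.32 and 0.4. These last 2 genes were named after their values were seen. The ages overlapped for all 3, with 30-day replicate 2 within or below the range of the 120-day libraries, and none passed the test (limma adjusted p = 0.12 to 0.242).

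The median log2 fold of the flavonoid list was −2.41, yet 1 gene (6.25%) fell and 2 (12.5%) rose. The shares over all genes tested were 37.6% and 8.40%. Leucoanthocyanidin dioxygenase-like (Rsa10018880) fell by −1.23 (limma adjusted p = 0.0025), or by −0.79 after median centring. Flavonol synthase/flavanone 3-hydroxylase-like (Rsa10003722) and flavonol synthase 3-like (Rsa10016200) rose by 1.44 and 0.75 (adjusted p = 0.0116 and 0.00958), the second by 1.19 after median centring. Without 30-day replicate 2, 13 of the list fell. That library was the lowest at 30 days for the ELIP1 copies too, though ELIP1 stayed above its 120-day levels there.

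**Figure D4:**
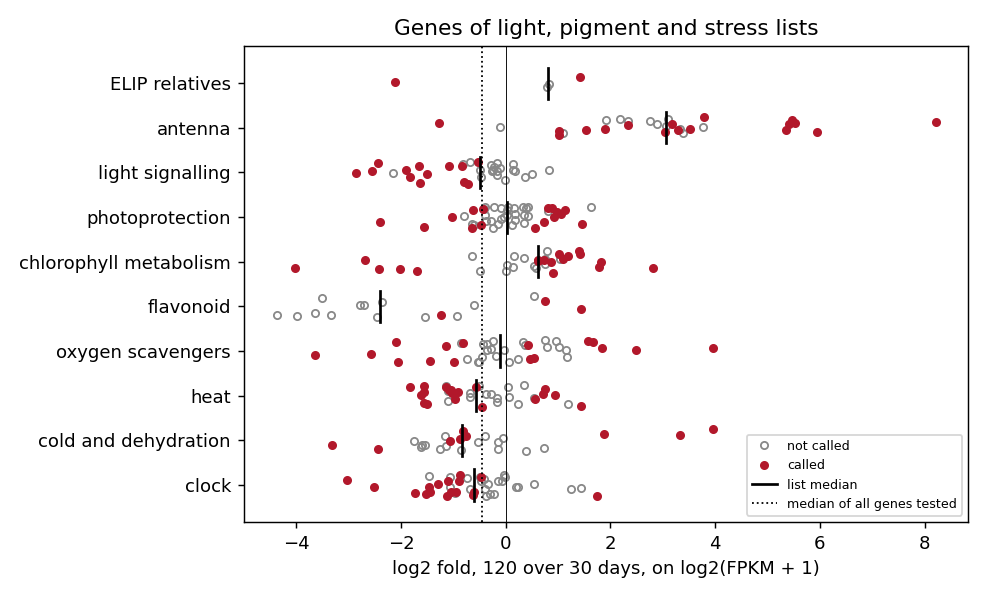
Log2 fold of 120 over 30 days for every tested gene of the 10 lists, with genes called by limma filled in red, list medians as bars and the median of all genes tested (−0.45) as a dotted line. Antenna genes lie to the right with a median of 3.06, and flavonoid genes to the left with a median of −2.41 and few calls.

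The antenna proteins, the abundant members of the superfamily, held far more rises than falls. Of 29 tested genes 16 (55.2%) rose, against 8.40% of all genes tested, and 1 fell. Their median log2 fold was 3.06. Within 30 days, 26 of the 29 (89.7%) were lowest in replicate 3, where ELIP1 was highest, against 39.1% of all genes tested. Chlorophyll a-b binding protein 2-like (Rsa10029877) had 9.99, 7.04 and 0.48 FPKM in 30-day replicates 1 to 3 and 178, 267 and 231 at 120 days (log2 fold 5.46, limma adjusted p = 0.00386). Chlorophyll a-b binding protein 2 (Rsa10029878) rose by a log2 fold of 8.21 and the photosystem I antenna protein 6 (Rsa10040827) by 1.89. Leaving out 30-day replicate 3 gave 27 risers, and leaving out 120-day replicates 1, 2 and 3 gave 10, 8 and 8.

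The photoprotection list went both ways. Its words were meant for the xanthophyll cycle, cyclic electron flow and photosystem II repair. They also matched mitochondrial proteases and plastid-lipid-associated proteins, so its counts are not those of photoprotection alone. Of 45 genes tested, 9 (20%) rose and 7 (15.6%) fell. The shares over all genes tested were 8.40% and 37.6%. After median centring 17 of the list rose and 2 fell. Without 30-day replicate 3, 19 rose and 9 fell. Falls numbered 2 or 3 when 30-day replicate 1 or a single 120-day library was dropped, and rises 4 or 5 when 120-day replicate 2 or 3 or 30-day replicate 1 was. The chloroplast protease Do-like 8 (Rsa10035272) rose to 52.2 ± 6.03 from 23.0 ± 1.89 FPKM (SD, n = 3 each), a log2 fold of 1.14 (limma adjusted p = 0.00355), and plastid-lipid-associated protein 7 (Rsa10036329) rose by 0.93. Protease Do-like 14 (Rsa10009294), which is not described as chloroplastic, fell by −1.56. The falls also included the mitochondrial proteases FTSH 3-like (Rsa10020293, −0.64) and Do-like 10 (Rsa10004575, −0.48). Of the 45 genes, 32 (71.1%) were highest in 30-day replicate 3 within 30 days, against 39.7% of all genes tested.

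Of 31 genes of chlorophyll synthesis and breakdown, 13 (41.9%) rose and 5 (16.1%) fell, against 8.40% and 37.6% of all genes tested. Synthesis genes were among the risers, such as the magnesium chelatase subunits ChlI-1 (Rsa10001911, log2 fold 1.79, limma adjusted p = 0.0029) and ChlD (Rsa10037502, 1.41) and chlorophyll synthase (Rsa10018751, 1.19). The 5 that fell, named after their values were seen, were 4 STAY-GREEN genes and 1 pheophytinase. The other genes of chlorophyll breakdown in the list did not pass, among them another STAY-GREEN gene (Rsa10004033, log2 fold −0.64), the other pheophytinases (Rsa10005974, 0.74, and Rsa10026433, 0.58) and the chlorophyll b reductases. Risers numbered 7 and 8 without 120-day replicates 2 and 3.

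Of 38 tested scavengers of reactive oxygen, 8 (21.1%) rose and 8 (21.1%) fell, against 8.40% and 37.6% of all genes tested. The chloroplast 2-Cys peroxiredoxin BAS1-like (Rsa10042803) rose to 232 ± 25.8 from 64.3 ± 11.1 FPKM (SD, n = 3 each), a log2 fold of 1.84 (limma adjusted p = 0.00233). Copper-zinc superoxide dismutase (Rsa10020234) fell by −3.65 and mitochondrial glutathione peroxidase 3 (Rsa10026063) by −0.98, or by −0.54 after median centring. The list had 13 risers without 30-day replicate 3, and 3 risers when 30-day replicate 1 or a single 120-day library was dropped. Falls numbered 3 or 4 when a 120-day library was, and 3 after median centring.

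The heat and cold lists, stresses to which ELIP transcripts respond in Arabidopsis, fell in shares near or below the background. Of 35 heat genes 14 (40%) fell and 5 rose, and 6 fell after median centring. Heat stress transcription factors B-1 (Rsa10026391) and A-4a-like (Rsa10016216) and a 17.6 kDa class II heat shock protein (Rsa10006014) fell by −1.62, −1.57 and −1.50. Falls numbered 7 without 120-day replicate 2 or 3, and risers 1 to 3 without a 120-day library or 30-day replicate 1. Of 24 cold and dehydration genes 6 (25%) fell and 3 rose, and 12 fell without 30-day replicate 3. Dehydrin ERD14-like (Rsa10030694) fell by −3.32 (limma adjusted p = 0.00487) and was highest in 30-day replicate 3, at 3097 FPKM against 1321 and 1017. Late embryogenesis abundant protein 2 (Rsa10030424) and dehydrin Xero 1-like (Rsa10032948) rose by 3.95 and 1.88.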

How the data were processed

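The authors deposited FPKM for the 6 input libraries, with 2 decimals, and a log2 fold, a p-value and a q-value per gene, per the file headers. The deposited peak table gives a log2 fold, p-value and FDR for each differential m6A peak. The submitters' processing notes name fastp, FastQC, HISAT2, HOMER, StringTie and edgeR, and their roles and the genome build are not given in the sources used here. The number of reads behind each FPKM is unknown, so no counting interval is given. The 6 IP libraries have no value per library here.

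Members and lists were chosen with earlier results of these data known, and lists matched by words can be wider than their names. Genes reaching 1 FPKM in 3 or more libraries were tested with limma 3.58.1 (R 4.3.3, eBayes with trend) on log2(FPKM + 1). This scale understates folds of low genes. The fit was tested on simulated data in which a gene had the same SD at both ages. In the real data the median SD was 0.31 at 30 days and 0.15 at 120 days. The simulation therefore cannot tell how accurate the calls are here. Exact tests used SciPy 1.17.1. Named genes were the 3 called genes per list with the smallest adjusted p, set HY5, UVR8 and clock genes, and the 6 nearest per copy. Replicates are independent pools of plants, per the labels. No sequence is shown, since none was used here.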

Additional observations from a re-analysis of the deposited data

How the results depend on the processing

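The log2 differences of both ELIP1 copies kept their direction under every alternative run. The copies were picked for their fall, and their levels did not overlap between the ages. Leaving out a library or changing the pseudocount therefore could not reverse the direction. Those runs show only how the size of the log2 differences varied. With 1 library left out they were −8.43 to −5.24 for Rsa10005993 and −7.89 to −3.72 for Rsa10028070. They were −7.07 and −6.35 with a pseudocount of 0.1, −6.45 and −5.4 with median-centred libraries, and −6.77 and −5.9 with quantile normalization. The gap between the copies was 1.63 to 2.05 with 1 library left out, where 5 libraries cannot go below an exact permutation p of 0.0625. The likeness rank of Rsa10028070 to Rsa10005993 was 2 with a pseudocount of 0.1. The depth behind the FPKM values is unknown, so no limit could be set on a level of 0.

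Of 220 counts recomputed for the lists, 144 stayed within 1.5 times the reported count and 76 did not; the cause was not tested. Over all genes, rises numbered 2968 with median-centred libraries and 954 to 2197 with 1 library left out. Falls over all genes numbered 2188 with median-centred libraries, 2799 with quantile normalization and 3789 to 9166 with 1 library left out.

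With median-centred libraries, rises numbered 2 among the relatives, 3 in light signalling, 17 in photoprotection and 2 in the clock list. Falls then numbered 0 for the antenna, 6 in light signalling, 2 in photoprotection, 3 for oxygen scavengers, 6 for heat, 2 for cold and 4 for the clock. With quantile normalization, rises numbered 0 among the relatives, 2 in light signalling, 14 in photoprotection and 0 in the clock list. Falls then numbered 0, 7, 2, 4, 6, 3 and 7 in the same 7 lists. With no filter on low values, rises numbered 2 among the relatives and 0 in the clock list, and falls 4 in photoprotection and 3 in the flavonoid list.

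With 1 library left out, rises ranged from 0 to 3 for the relatives, 8 to 27 for the antenna, 0 to 1 for light signalling, 4 to 19 for photoprotection, 7 to 19 for chlorophyll metabolism, 3 to 13 for oxygen scavengers, 1 to 6 for heat and 0 to 3 for the clock. Falls ranged from 0 to 1 for the antenna, 2 to 9 for photoprotection, 1 to 13 for flavonoids, 3 to 8 for oxygen scavengers, 7 to 16 for heat, 5 to 12 for cold and 7 to 21 for the clock.

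The replicate numbers were not taken to pair the ages, since the deviations of same-numbered libraries correlated at 0.272, 0.142 and 0.0814. Each library did correlate best with its own number, a hint from the data only. With a replicate block, 1733 genes rose and 6875 fell, photoprotection had 4 falls, heat 3 rises and cold 10 falls.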
